A study of Mus musculus with 8 samples.

Results

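H3K4me3 was examined at divergent protein-coding promoters, where a gene on the minus strand and a gene on the plus strand are transcribed away from each other out of the same stretch of DNA. A peak of the non-treated (NT) cells was a member when it covered the transcription start sites (TSSs) of 2 such genes, with the minus-strand TSS upstream of the plus-strand TSS by at most 1000 bp in mm9. The rule gave 698 of the 15799 NT H3K4me3 peaks, on 20 chromosomes, and they were set beside the 7313 NT peaks over a single protein-coding TSS. The ChIP-seq experiments used D1 cells, a long-term splenic dendritic cell (DC) line of C57BL/6 origin. H3K4me3 was profiled in NT cells, after 2 h with 10 μg/ml curdlan, and after 2 h with the same curdlan in the presence of FK506, whose dose the labels of these libraries do not give. Curdlan is a β-glucan that engages dectin-1, and FK506 is a calcineurin inhibitor that keeps NFAT proteins out of the nucleus. NFATc2 with a V5 tag was profiled after 30 min of curdlan at 10 μg/ml, in D1 cells transduced with a lentivirus and sorted for low GFP. For every condition there was a single ChIP library with its input, so the spread between cultures was not measured, no p-value was computed, and every interval below covers counting error or the spread over regions only.

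H3K4me3 is placed on the nucleosomes that follow a TSS, and it is a mark of promoters that are active or ready for use. A divergent promoter has a nucleosome-poor core that serves both genes, with marked nucleosomes to each side of it. Such promoters are usually rich in CpG dinucleotides, poor in TATA boxes and frequent among genes for DNA repair, mitochondria and the cell cycle, and many of them carry binding sites of ETS family factors.

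The ChIP libraries held between 14377535 tags for NFATc2 and 21289349 for curdlan, with 16662316 for NT and 19468498 for curdlan with FK506. A tag is a mapped read, counted once per position. Of 10 genes used as DC or myeloid markers, 8 carried an NT peak at a TSS, among them Itgax and Clec7a, which encodes dectin-1. Zbtb46 and Flt3 did not. None of 10 marker genes of T cells, B cells, fibroblasts and hepatocytes carried one.

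The bases between the TSSs of 6 members are shown first, because the peaks that differed most between the conditions, those with an NFATc2 peak and the best known pairs are described through them. Each runs 5′ to 3′ on the plus strand of mm9, and capitals mark the CCAAT box, the GC box (GGGCGG), the ETS factor site (CCGGAAGT) and the core of NFAT sites (GGAAAA) on either strand. The stretch between Sqstm1 and Mgat4b lies at chr11:50024330-50024391, and that between Park7 and Tnfrsf9 at chr4:150288547-150288670. The stretch between Oas1c and Oas1b lies at chr5:121262524-121262643, that between Brca1 and Nbr1 at chr11:101413194-101413462, that between Mrps12 and Sars2 at chr7:29526840-29527009, and that between Sdhd and Timm8b at chr9:50411955-50412005.
Sqstm1/Mgat4b: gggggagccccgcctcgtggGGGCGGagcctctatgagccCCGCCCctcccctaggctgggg
Park7/Tnfrsf9: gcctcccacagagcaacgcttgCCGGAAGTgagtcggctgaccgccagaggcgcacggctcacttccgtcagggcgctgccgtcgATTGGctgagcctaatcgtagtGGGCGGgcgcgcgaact
Oas1c/Oas1b: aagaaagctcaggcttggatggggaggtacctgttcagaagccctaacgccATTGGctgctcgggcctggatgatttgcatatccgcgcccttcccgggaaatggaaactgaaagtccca
Brca1/Nbr1: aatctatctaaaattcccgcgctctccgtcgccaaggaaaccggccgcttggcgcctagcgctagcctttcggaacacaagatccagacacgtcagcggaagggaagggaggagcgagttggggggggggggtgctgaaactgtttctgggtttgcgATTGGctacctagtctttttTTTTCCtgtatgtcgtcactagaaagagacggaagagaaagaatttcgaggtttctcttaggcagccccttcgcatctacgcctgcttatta
Mrps12/Sars2: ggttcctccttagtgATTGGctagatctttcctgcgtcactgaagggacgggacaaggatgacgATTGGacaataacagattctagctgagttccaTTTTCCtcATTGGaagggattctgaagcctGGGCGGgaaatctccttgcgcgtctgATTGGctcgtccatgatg
Sdhd/Timm8b: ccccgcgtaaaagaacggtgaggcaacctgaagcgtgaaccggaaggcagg
The stretch of Mrps12 and Sars2 holds CCAAT 4 times, always as its reverse complement ATTGG, whereas that of Sdhd and Timm8b holds none of these motifs.

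The annotation held 828 divergent pairs with TSSs at most 1000 bp apart, of which 710 (85.7%, 95% Wilson interval from 83.2 to 88.0%) had both TSSs inside the same NT peak. These 710 pairs fell in the 698 member peaks, since 12 peaks held 2 pairs. Of the member peaks, 679 covered exactly 2 protein-coding TSSs and 19 covered 3. The pairs brought together 1408 of the 9611 protein-coding genes whose TSS lay in an NT peak (14.7%), and 160 members included a gene model with a Gm or Rik name. The TSSs were usually close: the median distance was 136.5 bp, with quartiles at 69.3 and 271 bp, and 548 members (78.5%) had them at most 300 bp apart. The shortest distance was 1 bp, between Tubgcp2, a component of the γ-tubulin complex, and Zfp511. Just inside the limit stood Abca17 and Abca3, 994 bp apart with 139 tags, and Pdzd7 and Sfxn3 together with Btf3l4 and Txndc12, both 987 bp apart with 1196 and 1829 tags. Just outside it were Nacc1 and Trmt1 at 1004 bp with 898 tags, 9130011J15Rik and Tmem38a at 1015 bp with 694 tags, and Sgsm2 and Tsr1 at 1018 bp with 948 tags. A further 41 peaks covered a pair more than 1000 and up to 2000 bp apart, and they are not members.

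**Figure D1:**
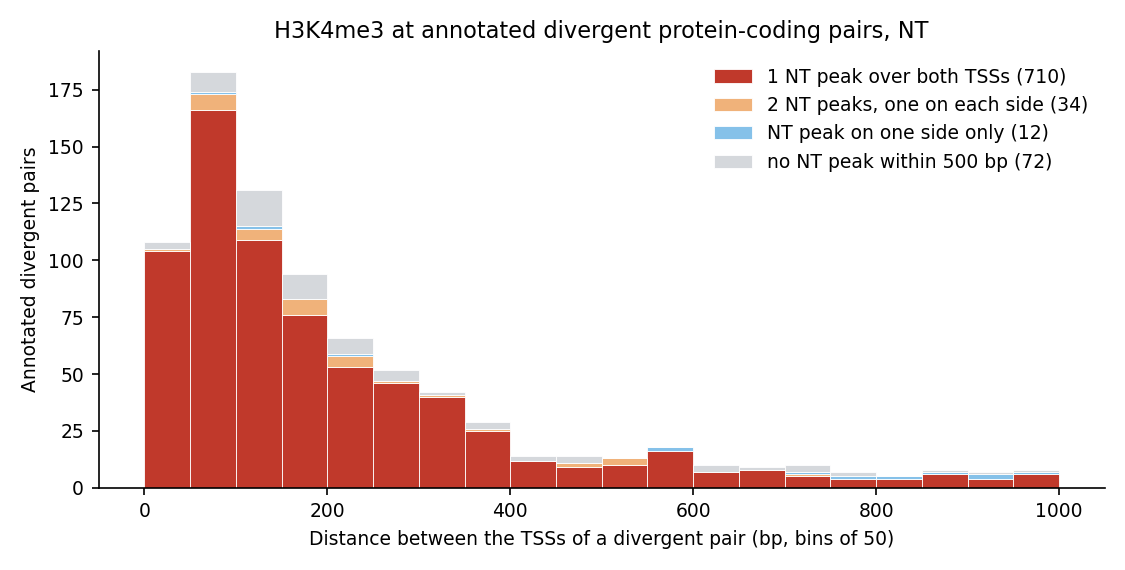
Annotated divergent protein-coding pairs (vertical axis, number of pairs) by the distance between their TSSs (horizontal axis, bp, bins of 50), coloured by the NT peaks at them. Most pairs lie under 300 bp, and 710 of 828 have both TSSs in 1 peak, 34 have 2 separate peaks to either side, 12 have a peak on one side only and 72 have no peak within 500 bp.

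The 118 pairs outside the members were not all unmarked. At 34 of them 2 separate NT peaks stood to either side with a valley between, each edge within 500 bp of a TSS. At 9 of these neither TSS was inside a peak, and at the others a TSS or both lay inside the flanking peaks. The valleys had a median width of 212 bp, from 12 to 566 bp, and the peaks to their left and right had medians of 428.5 and 595.5 tags, or 1011 tags together, close to the 1038.5 tags of the member peaks. Zcrb1 and Pphln1, whose TSSs are 16 bp apart, had an NT peak of 299 tags on the Zcrb1 side and one of 375 tags on the Pphln1 side, with a valley of 128 bp. The curdlan list had 1 peak of 868 tags across this promoter, and the curdlan with FK506 list again had 2. Gfer, which encodes a sulfhydryl oxidase of mitochondria, and Noxo1, an organizer of an NADPH oxidase, showed the same order, with 313 and 223 tags in NT and 1 peak of 560 tags in curdlan. Over all 828 pairs, valleys between 2 peaks were found at 34 in NT, 13 in curdlan and 30 in curdlan with FK506, and 1 peak covered both TSSs at 710, 728 and 714. The curdlan library also had the most ChIP tags, and the part of depth in this difference was not tested. A pair counted as 1 peak could still have another peak close by, so not every valley had been filled. At Fam35a/Glud1, with 240 and 1316 NT tags, the curdlan peak over both TSSs held 259 tags. Another curdlan peak began 265 bp past the Glud1 TSS. Rfng/Gps1 had 143 and 217 tags in NT and 173 in its curdlan peak, with another 278 bp past the Gps1 TSS. In all 3 lists, 70 pairs had no peak within 500 bp. TSSs of other genes lay in such gaps as well: 35 TSSs of the pairs did (2.36% of those covered or in a gap), against 341 TSSs of the other protein-coding genes (4.01%).

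Member peaks were longer and held more tags than peaks over a single protein-coding TSS. Their median length was 3405.5 bp (95% order-statistic interval of the median from 3338 to 3538 bp), against 2771 bp (2747 to 2799) for single-TSS peaks. Their median of NT tags was 1038.5 (1000 to 1078) against 658 (644 to 670). Height over background did not follow: the median MACS fold enrichment was 43.7 (41.7 to 44.7) in members and 42.2 (41.7 to 42.7) in single-TSS peaks. With the distance between the TSSs subtracted, the median length of members was still 3239.5 bp. A total of 317 single-TSS peaks had a non-coding TSS that diverged from the coding one within 1000 bp, and these lay between, with 3037 bp (2852 to 3161) and 801 tags (729 to 856). Another 435 NT peaks covered 2 or more protein-coding TSSs without being members. Their medians of 3530 bp, 1000 tags and a fold enrichment of 43.6 were close to those of members. Greater length and more tags were therefore not particular to divergent promoters. Between members and single-TSS peaks, the order depended on what was held equal. When single-TSS peaks were averaged within quintiles of NT tags and weighted like the members, they were the longer ones, with 3660 bp against 3489 bp. Within quintiles of length, members held more tags, 1095 against 963.

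Members and single-TSS peaks differed mainly in their reach to the side that lies upstream of a single gene. Member peaks reached 1589.5 bp (quartiles 1295 and 1980) into the gene on the minus strand and 1588.5 bp (1283 and 2055) into the gene on the plus strand. Single-TSS peaks reached 1746 bp into the gene and 973 bp upstream of it, and those with a divergent non-coding TSS reached 1309 bp upstream. At 1500 bp from the promoter centre, 65.8% of member peaks were still present on the minus side and 65.2% on the plus side. For single-TSS peaks these shares were 11.5% upstream and 69.6% downstream. The promoter centre is the midpoint between the TSSs of a pair, and 75 bp upstream of a single TSS. The shorter arm of a member had a median of 1381 bp against 915 bp, whereas the longer arm had 1847.5 bp against 1793 bp.

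**Figure D2:**
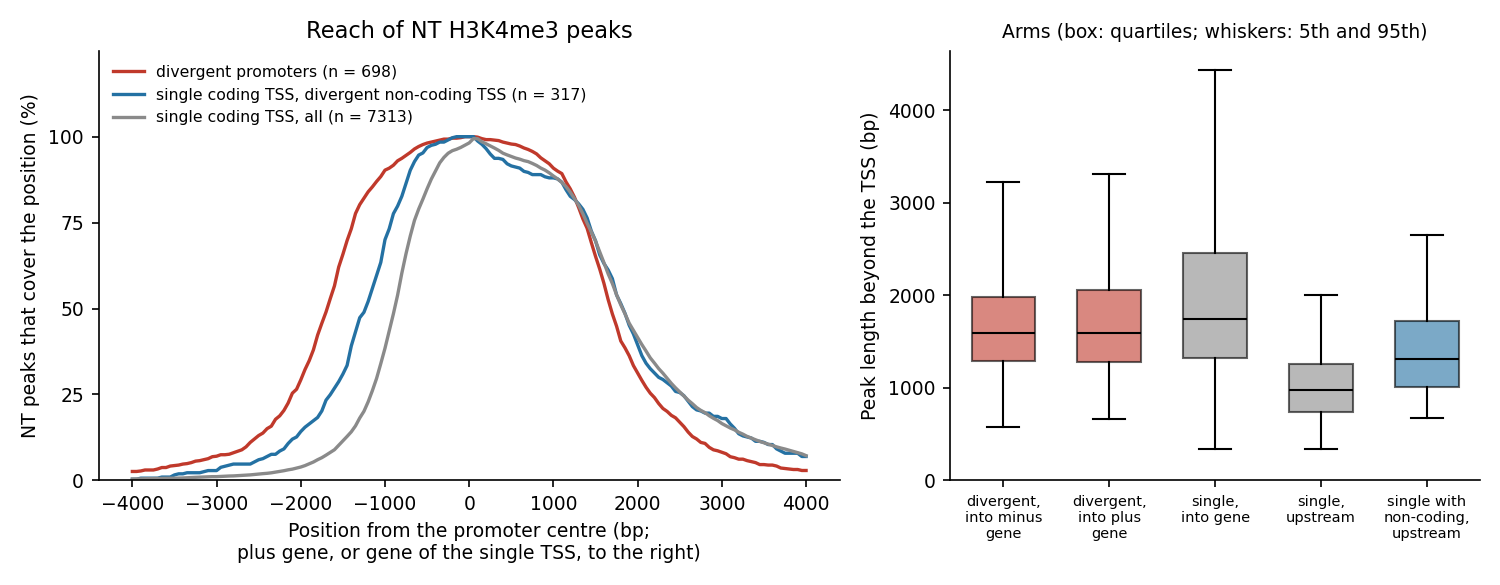
Left, the percentage of NT H3K4me3 peaks that cover each position (bp from the promoter centre) for divergent promoters, for single-TSS peaks and for single-TSS peaks with a divergent non-coding TSS; right, the length of peak beyond each TSS in bp, as boxes of the quartiles with whiskers at the 5th and 95th percentiles. The divergent curve is symmetrical, with 65.8% and 65.2% at 1500 bp to each side, whereas the single-TSS curve falls to 11.5% upstream.

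The summit, the position of the highest pileup, lay within one of the genes and seldom between them. It was on the side of the minus-strand gene in 371 members (53.2%, from 49.4 to 56.8%) and of the plus-strand gene in 309 (44.3%, from 40.6 to 48.0%). Only 18 summits (2.58%, from 1.64 to 4.04%) lay between the TSSs. The gap between the TSSs was a small part of the peak, with medians of 136.5 and 3405.5 bp. The share of summits in it rose with the distance. It was 0% up to 100 bp, 8.75% above 300 and up to 500 bp and 12.9% beyond 500 bp. Outside the gap, summits were 279 bp into the gene (median, quartiles 205 and 445.5 bp). At single-TSS peaks, 6052 of 7313 summits (82.8%) lay downstream of the TSS, and the median position over all of them was 314 bp downstream.

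The median length was highest where the TSSs were farthest apart, but not once the distance between them was subtracted. The median length was 3269 bp for the 267 members with TSSs up to 100 bp apart, 3595 bp above that and up to 200 bp, 3350.5 bp up to 300 bp, 3418.5 bp up to 500 bp and 3879.5 bp for the 70 members beyond 500 bp. With the distance between the TSSs subtracted, these lengths were 3219, 3439, 3092.5, 3078.5 and 3129 bp. The corresponding medians of tags were 1005, 1078, 1022, 1063.5 and 1135. The members with the most tags were broad on one side or on both. 5031425E22Rik/Mll5, at chr5:22935200-22944230, had 4897 tags in NT, 5939 in curdlan and 5267 in curdlan with FK506, and its peak ran 4537 bp into one gene and 3971 bp into Mll5, which encodes a SET domain protein. Tmem138/Cybasc3 had 4796, 4648 and 4730 tags and reached 6868 bp into Cybasc3 but 1839 bp into Tmem138. Fbxo24/Lrch4 had 4170, 4215 and 3950 tags, and Pcnxl3/Map3k11 had 3940, 4415 and 3921. The latter ran 5132 bp into Map3k11, which encodes a kinase of the JNK pathway, and 1536 bp into Pcnxl3. Rsrc2/Kntc1 had 3706, 4103 and 3894 tags, with 4812 bp on the side of Rsrc2. At the other end, 5 members had under 100 NT tags (0.716%), against 353 single-TSS peaks (4.83%).

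The sequence of the promoters was rich in CpG. In the 300 bp around the centre, the median ratio of observed to expected CpG was 0.86 (0.84 to 0.88) in members, 0.78 (0.78 to 0.79) in single-TSS peaks, 0.84 (0.82 to 0.87) in those with a divergent non-coding TSS and 0.56 in all 22359 protein-coding promoters with a full window. A ratio of at least 0.6 was found in 623 members (89.3%, from 86.7 to 91.3%) and in 5611 single-TSS peaks (76.7%, from 75.7 to 77.7%). The ratio was lower where the TSSs were far apart and the window lay between them: it was 0.91 up to 100 bp and 0.58 beyond 500 bp.

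Short motifs were counted in the same 300 bp on both strands, each on its own, and every share is given beside that of all protein-coding promoters. In the 548 members with TSSs at most 300 bp apart, this window holds both TSSs, whereas at single promoters it is placed on 1. The part of this in the differences below was not tested. CCGGAAGT, a strong site for ETS factors, was in 105 members (15.0%, from 12.6 to 17.9%), 697 single-TSS peaks (9.53%) and 4.94% of all promoters, a difference of 5.51 percentage points (2.96 to 8.43) between the first of these. The extended YY1 site was in 29 members (4.15%), against 2.42% and 1.31%, a difference of 1.73 points (0.432 to 3.51). CCAAT, bound by NF-Y, was in 303 members (43.4%), against 38.7% and 37.3%, a difference of 4.73 points (0.925 to 8.59). The intervals of these differences lay above 0. Single-TSS peaks with a divergent non-coding TSS held CCAAT in 45.7%, above the members, the ETS site in 35 of 317 and the YY1 site in 2.52%. The interval of the difference between members and all single-TSS peaks held 0 for GGGCGG, the GC box bound by SP1 (67.9% against 66.6%, 44.7% of all promoters). It also held 0 for the palindromic NRF1 site (3.15% against 2.17%, 1.19% of all). The same was true of TGACGTCA, the cAMP response element (4.30% against 3.95%, 2.34% of all). Single-TSS peaks with a divergent non-coding TSS held GGGCGG in 77.0% and TGACGTCA in 6.31%, both above the members, and the NRF1 site in 2.52%. TATAAA was in 33 members (4.73%), 6.07% of single-TSS peaks and 12.7% of all promoters. The motifs of curdlan-responsive factors were no more frequent: GGAAAA, the core of NFAT sites, was in 20.2% of members against 20.7% and 22.9% of all, and TGACTCA, the site of AP-1, in 1.86% against 3.02% and 4.21% of all.

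Nearly every member was also a peak in the other lists. A curdlan peak overlapped 696 of 698 members (99.7%, from 99.0 to 99.9%), and 7228 single-TSS peaks (98.8%, from 98.6 to 99.1%). Over all NT peaks, 7.98% had no overlapping curdlan peak. A peak of the curdlan with FK506 list overlapped 697 members (99.9%, with a lower bound of 99.2%) and 98.6% of single-TSS peaks, and 8.47% of all NT peaks had none. With single-TSS peaks weighted to the members' tags, the shares were 99.8% and 99.7%, close to those of the members. Of the 435 NT peaks over 2 or more protein-coding TSSs that were not members, 434 (99.8%) overlapped a curdlan peak. The member absent from both lists was C630004L07Rik/Arhgef19, with 38 tags in NT. Pecr/Tmem169, with Pecr a reductase of peroxisomes, had 61 tags in NT, none in the curdlan list and 52 in curdlan with FK506. These were among the weakest members.

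The change of a peak was the log2 ratio of its tags, each scaled by the total ChIP tags of its library, for peaks that overlapped exactly 1 peak of the other list and the reverse, centred on the median of all such NT peaks. Before centring, these medians were -0.15 for curdlan over NT and -0.19 for curdlan with FK506 over NT. Among 675 comparable members the median change with curdlan was 0.01 with an SD of 0.19 over peaks, and among 6837 single-TSS peaks it was 0.01 with an SD of 0.30. With FK506 present the values were 0.02 (SD 0.19, 676 members) and 0.01 (SD 0.28). With curdlan, 2 members were at least 2-fold higher and none was 2-fold lower, where the shares over all NT peaks were 1.32% and 0.288%, or 1.61% in either direction. Past 1.5-fold in either direction were 8 of 675 members (1.19%, from 0.602 to 2.32%), 329 single-TSS peaks (4.81%, from 4.33 to 5.35%) and 7.13% of all NT peaks. Of the 8 members, 6 were higher and 2 lower, where 4.36% and 2.77% of all NT peaks were. The difference between members and single-TSS peaks was -3.63 percentage points (-4.42 to -2.39). For curdlan with FK506, 5 of 676 members (0.740%) and 3.74% of single-TSS peaks were past 1.5-fold, and 5.83% of all NT peaks. Of these members 3 were higher and 2 lower, where 3.42% and 2.42% of all NT peaks were, and 2 were past 2-fold, both higher, where 0.99% of all were higher, 0.273% lower and 1.26% either. The difference from single-TSS peaks past 1.5-fold was -3.00 points (-3.64 to -1.93). Both comparisons share the NT library. A difference remained on average with tags held equal: weighted to the members' tags, 4.02% of single-TSS peaks were past 1.5-fold with curdlan and the SD was 0.26. It was not the same at all sizes. In the quintile with the fewest tags 10.7% of members and 10.7% of single-TSS peaks were past 1.5-fold. The next quintile had 2.67% and 3.30%, and that with the most tags had 0% and 4.70%. Over all sizes, single-TSS peaks with a divergent non-coding TSS were similar to members with curdlan, with 4 of 303 past 1.5-fold (1.32%) and an SD of 0.23. With FK506 present 6 of 292 were (2.05%), and members differed from them by -1.32 points (-3.71 to 0.165). Of NT peaks over 2 or more protein-coding TSSs that were not members, 14 of 412 (3.40%) were past 1.5-fold with curdlan.

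**Figure D3:**
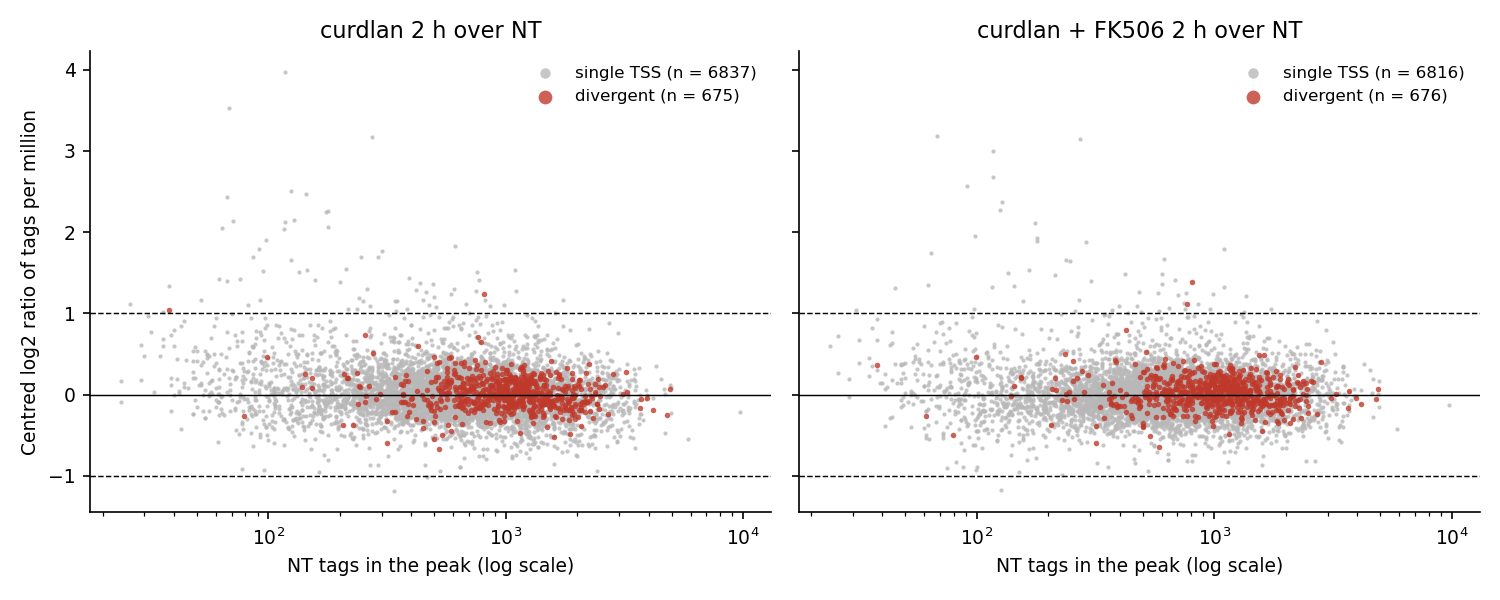
Centred log2 ratio of scaled tags (vertical axis) against NT tags of the peak (horizontal axis, log scale) for curdlan over NT (left) and curdlan with FK506 over NT (right); red points are divergent promoter peaks, grey points single-TSS peaks, and dashed lines mark 2-fold. In the left panel 2 of 675 members lie past the upper line and none past the lower, against 70 and 2 of 6837 single-TSS peaks.

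Tags were counted over peaks called separately in each list, so the ratio also moved with the called length. With tags per kb of called peak, applied to this threshold after seeing the data, 0 of 675 members (up to 0.566%) passed 1.5-fold with curdlan, against 183 single-TSS peaks (2.68%) and 3.92% of all NT peaks. The difference between members and single-TSS peaks was then -2.68 points (-3.09 to -2.01). With FK506, 1 of 676 members did, against 2.20% of single-TSS peaks and 3.25% of all NT peaks. The SD with curdlan was 0.17 in members and 0.24 in single-TSS peaks on this scale.

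Between curdlan with and without FK506 the members differed still less. Over 665 members comparable in both lists, the SD of the centred log2 ratio was 0.09, against 0.16 for 6619 single-TSS peaks, and 98.3% of members were within 0.25 of 0, against 92.1%. Members also held more tags than single-TSS peaks, and the part of tags in this difference was not tested. The SD was 0.15 for 287 single-TSS peaks with a divergent non-coding TSS. It was 0.11, nearer to members, for 400 NT peaks over 2 or more protein-coding TSSs that were not members. No member passed 2-fold, where 0.244% of all NT peaks did (0.189% higher and 0.0552% lower with curdlan alone). A single member passed 1.5-fold, upwards, where 1.28% of all NT peaks did (0.946% higher and 0.339% lower). This was A830093I24Rik/Pfn4, a weak peak of 38 tags in NT, 90 in curdlan and 50 when FK506 was added.

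The largest increase in tags was at Sqstm1/Mgat4b, at chr11:50022120-50025630. Sqstm1 encodes p62, an autophagy receptor that is induced by stress, and Mgat4b a glycosyltransferase that branches N-glycans. Its 807 tags in NT became 2188 in curdlan and 2149 in curdlan with FK506, which were centred log2 ratios of 1.23 (exact binomial interval from 1.12 to 1.35) and 1.38. The called peak was also longer, 7715 bp and 7504 bp against 3511 bp in NT, and per kb the ratios were 0.15 and 0.31. A830093I24Rik/Pfn4 followed with 1.04 (0.48 to 1.62) in curdlan and 0.36 (-0.27 to 1.01) with FK506. Erc1/3110021A11Rik had 254, 487 and 347 tags, with 0.73 and 0.42, where Erc1 is a scaffold protein. Anxa5/1810062G17Rik had 767, 1447 and 1696 tags, with 0.71 (0.58 to 0.84) in curdlan and 1.11 (0.99 to 1.24) with FK506. Anxa5 encodes annexin A5, which binds phosphatidylserine, and its called peak was 2916 bp long in NT, 5531 bp in curdlan and 6121 bp with FK506. Per kb its ratios were -0.16 and 0.06. Cinp/Tecpr2, of which Tecpr2 acts in autophagy, had 786, 1420 and 986 tags and ratios of 0.65 and 0.29. Per kb, the curdlan ratios of Cinp/Tecpr2, Erc1/3110021A11Rik and A830093I24Rik/Pfn4 were 0.38, 0.47 and 0.49.

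Decreases were smaller, and none reached 2-fold. Park7/Tnfrsf9, at chr4:150287230-150290118, had 522 tags in NT, 379 in curdlan and 457 in curdlan with FK506, with centred log2 ratios of -0.67 (-0.86 to -0.47) and -0.22 (-0.41 to -0.04). Park7 encodes DJ-1, a sensor of oxidative stress, and Tnfrsf9 encodes 4-1BB, a costimulatory receptor of the TNF receptor family. Its called length was 2889, 2650 and 2689 bp, and per kb the ratio with curdlan was -0.49. Gm1661/Tmem53 had 317, 241 and 215 tags, with -0.60 and -0.59, and -0.37 per kb with curdlan. Histone pairs were 2 of the 5 largest decreases.

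Replication-dependent histone genes, many of which are arranged as divergent H2A and H2B pairs, had the lowest median ratio of the groups examined. Of 46 marked histone genes, 13 (28.3%) were in divergent pairs, in 7 peaks, 6 of which paired 2 histone genes. All 6 comparable peaks were lower with curdlan, with a median of -0.35 from -0.55 to -0.20, and all 6 comparable peaks with FK506 were lower too, with a median of -0.22, where 47.1% of all comparable members were below 0 with curdlan. Hist1h2bl/Hist1h2ai had 500 tags in NT, 395 in curdlan and 534 in a curdlan with FK506 peak that also overlapped another NT peak. Hist1h2ak/Hist1h2bn had 537, 440 and 386 tags, and Hist1h2ac/Hist1h2bc had 932, 867 and 849. This was shared with the histone genes outside divergent pairs, whose 11 comparable single-TSS peaks were also all lower, with a median of -0.32. Per kb, 5 of the 6 divergent histone peaks were lower with curdlan, with a median of -0.31, and Hist1h2ac/Hist1h2bc had 0.05. Histone genes are near-identical copies, so reads could be assigned to more than one of them.

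The share of marked genes in divergent pairs varied among gene groups. In DNA repair, 23 of 69 marked genes (33.3%, from 23.4 to 45.1%) were in divergent pairs, where the share over all marked genes was 14.7%. Among them were Atm with Npat, Brca1 with Nbr1 and Palb2 with Dctn5. The respiratory chain had 20 of 81 (24.7%, from 16.6 to 35.1%), such as Sdhd with Timm8b and Ndufs1 with Eef1b2, and the mitochondrial ribosome had 18 of 76 (23.7%, from 15.5 to 34.4%), among them both genes of Mrpl46/Mrps11. Aminoacyl-tRNA synthetases had 8 of 36 (22.2%, from 11.7 to 38.1%) and the proteasome 6 of 41 (14.6%, from 6.88 to 28.4%), close to the share of all genes. Below it stood the cytosolic ribosome with 8 of 77 (10.4%, from 5.36 to 19.2%) and zinc finger genes of the Zfp series with 17 of 238 (7.14%, from 4.51 to 11.1%). Of the immune groups, interferon response had 2 of 32 (6.25%, from 1.73 to 20.1%), cytokines and chemokines 1 of 26 (3.85%, from 0.682 to 18.9%), early response genes 1 of 39 (2.56%, from 0.454 to 13.2%) and antigen presentation 0 of 21 (up to 15.5%). The intervals of interferon response, cytokines and antigen presentation hold the share of all genes. Oas1c and Oas1b, a member pair described below, were not in the list of interferon response genes, so that share depends on the list. All these shares also depend on the rule, which leaves out pairs whose TSSs overlap head to head, such as Tap1/Psmb9.

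**Figure D4:**
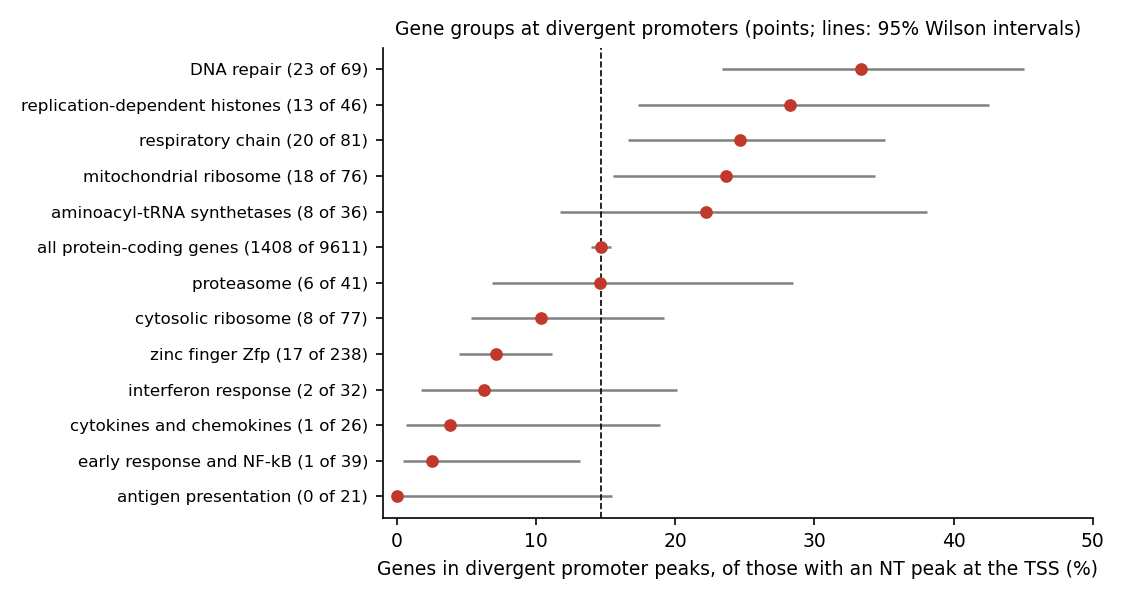
Percentage of genes in divergent promoter peaks among the genes with an NT peak at the TSS (horizontal axis), for gene groups listed with their counts; points are shares, lines 95% Wilson intervals, and the dashed line is the 14.7% of all protein-coding genes. DNA repair stands highest at 33.3% and antigen presentation lowest at 0.

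With curdlan the groups of divergent peaks moved by small amounts. All 8 cytosolic ribosome peaks were above 0 with curdlan, with a median of 0.22, as were all 6 proteasome peaks, with a median of 0.20, beside 52.9% of all comparable members. The same held with FK506, with medians of 0.27 and 0.16, and single-TSS peaks of these groups had medians of 0.22 and 0.15 with curdlan. Per kb, 6 of the 8 and 4 of the 6 were above 0 with curdlan, with medians of 0.12 and 0.11. Of 22 comparable DNA repair peaks, 20 were below 0 with a median of -0.12, and single-TSS peaks of that group had a median of -0.02. With FK506 these medians were -0.10 and -0.06, and per kb 13 of the 22 were below 0 with curdlan, with a median of -0.04. The difference between these sets was not tested. Of 20 respiratory chain peaks 15 were above 0 with curdlan, with a median of 0.07, and single-TSS peaks of that group had a median of 0.004. Per kb, 13 of the 20 were above 0 with curdlan and 10 with FK506, with medians of 0.06 and 0.02. Among 8 peaks of tRNA synthetases, 5 were above 0, and the highest was Wars/Wdr25, with 574, 905 and 736 tags and a ratio of 0.45, where Wars encodes tryptophanyl-tRNA synthetase.

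The lists of interferon, cytokine and early response genes gave 4 members. Ifit1, an interferon-induced gene, is paired with 2010002M12Rik, and this peak had 647 tags in NT, 980 in curdlan and 694 in curdlan with FK506, with ratios of 0.39 (0.25 to 0.54) and 0.07 (-0.09 to 0.23). The called peak was 2397 bp long in NT, 3319 bp in curdlan and 2278 bp with FK506. Per kb the order was the other way, with -0.02 in curdlan and 0.16 with FK506. Bcl2l12/Irf3 had 1514, 1588 and 1495 tags with -0.14 and -0.05, where Irf3 is a transcription factor of the interferon response. Wdhd1/Socs4 had 1647, 1813 and 1549 tags with -0.07 and -0.12. Elavl1/Ccl25, which joins the RNA-binding protein HuR and a chemokine, had 479 tags in NT and 464 with FK506, and in curdlan it lay in a peak of 1239 tags that covered a further NT peak.

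Of 17 pairs known from textbooks as divergent, 8 were members. Their tags stayed close to NT in both treatments. Atm/Npat had 1466 tags in NT, 1557 in curdlan and 1371 in curdlan with FK506, with ratios of -0.12 and -0.13. Brca1/Nbr1 had 1698, 1740 and 1572, with -0.17 and -0.14, and Mcm4/Prkdc had 1306, 1347 and 1133, with -0.16 and -0.24. Wrap53/Trp53 had 2426, 2585 and 2352 tags, with -0.11 and -0.08. These 4 promoters of DNA damage and replication genes were slightly below 0 in both comparisons, and remained so per kb. Hnrnpa2b1/Cbx3, a CpG island promoter of housekeeping genes, had 3254, 3823 and 3336 tags, with 0.03 and 0.00, over a peak of 9165 bp. Sdhd/Timm8b had 1384, 1614 and 1437 tags with 0.02 and 0.02, Mrps12/Sars2 had 813, 933 and 882 with -0.01 and 0.08, and Pdcd10/Serpini1 had 970, 1203 and 1122 with 0.10 and 0.18. At 7 other pairs, Hspd1/Hspe1 and Tap1/Psmb9 among them, the outermost annotated TSSs overlap head to head by 21 to 271 bp, so the rule does not take them. Ranbp1/Trmt2a, 151 bp apart, had its TSSs in different peaks in every list, and Psmb1 and Tbp are 1612 bp apart.

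A difference in the frequency of NFATc2 peaks near the promoter centre was not detectable between divergent and single promoters. A summit lay within 500 bp of the promoter centre in 36 members (5.16%, from 3.75 to 7.06%) and in 352 single-TSS peaks (4.81%, from 4.35 to 5.33%), a difference of 0.344 percentage points (-1.16 to 2.30). Anywhere in the H3K4me3 peak, 72 members (10.3%, from 8.27 to 12.8%) and 896 single-TSS peaks (12.3%, from 11.5 to 13.0%) had one, a difference of -1.94 points (-4.12 to 0.647). Members held 29.6 NFATc2 summits per Mb of peak, against 43.0 in single-TSS peaks and 53.3 in all NT peaks. When single-TSS peaks were weighted to the members' tags or length, 17.6% or 16.7% of them held a summit, while the shares near the centre were 5.92% and 5.84%. This gap was not the same at all sizes. In the quintile with the most tags 13.97% of members and 28.2% of single-TSS peaks held a summit, and in that with the fewest 6.45% and 4.66%.

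Of the 36 summits, 11 lay between the TSSs, 15 on the side of the minus-strand gene and 10 on that of the plus-strand gene. The NFATc2 peaks had a median of 71.5 tags, from 24 to 223, where the median of all 9438 NFATc2 peaks was 63, and 15 of the 36 had a p-value of 1e-10 or less. GGAAAA was within 100 bp of 21 summits (58.3%, from 42.2 to 72.9%), against 45.6% of all NFATc2 summits, a difference of 12.7 points (-3.44 to 27.3). H3K4me3 changes did not stand out at these members: the 34 comparable ones had a median ratio of 0.02 with curdlan, from -0.38 to 0.41, and those without a summit had 0.01.

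The NFATc2 peak with the most tags was at Oas1c/Oas1b, 2 genes of the oligoadenylate synthetase family that acts against viruses. It had 223 tags, with its summit 103 bp from the centre on the side of Oas1c, and the H3K4me3 peak had 1825 tags in NT, 1971 in curdlan and 1637 when FK506 was added. Lrwd1/Alkbh4, with 199 NFATc2 tags and a summit 474 bp from the centre, had 1719, 1840 and 1611 H3K4me3 tags, and Lrwd1 encodes a partner of the origin recognition complex. At Nek8/Tlcd1 the NFATc2 peak had 157 tags and lay 432 bp into the side of Tlcd1. Its H3K4me3 peak had 1118 tags in NT and 1352 with FK506, and in curdlan it was part of a peak of 3178 tags that covered more than 1 NT peak. Cdk5/Slc4a2 had 136 NFATc2 tags and 2288, 2599 and 2253 H3K4me3 tags, Dpysl2/Gm5464 had 105 NFATc2 tags, and Hmmr/Nudcd2 had 95 NFATc2 tags and 1540, 1686 and 1486 H3K4me3 tags. Where these 6 promoters were comparable, their centred log2 ratios were between -0.19 and 0.24 in either treatment. Of the 11 summits between the TSSs, those with the most tags were at Gm9900/Sh3bp5l with 90, Pole3/4933430I17Rik with 86 and Mrps12/Sars2 with 81, whose sequence above holds GGAAAA once.

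**Figure D5:**
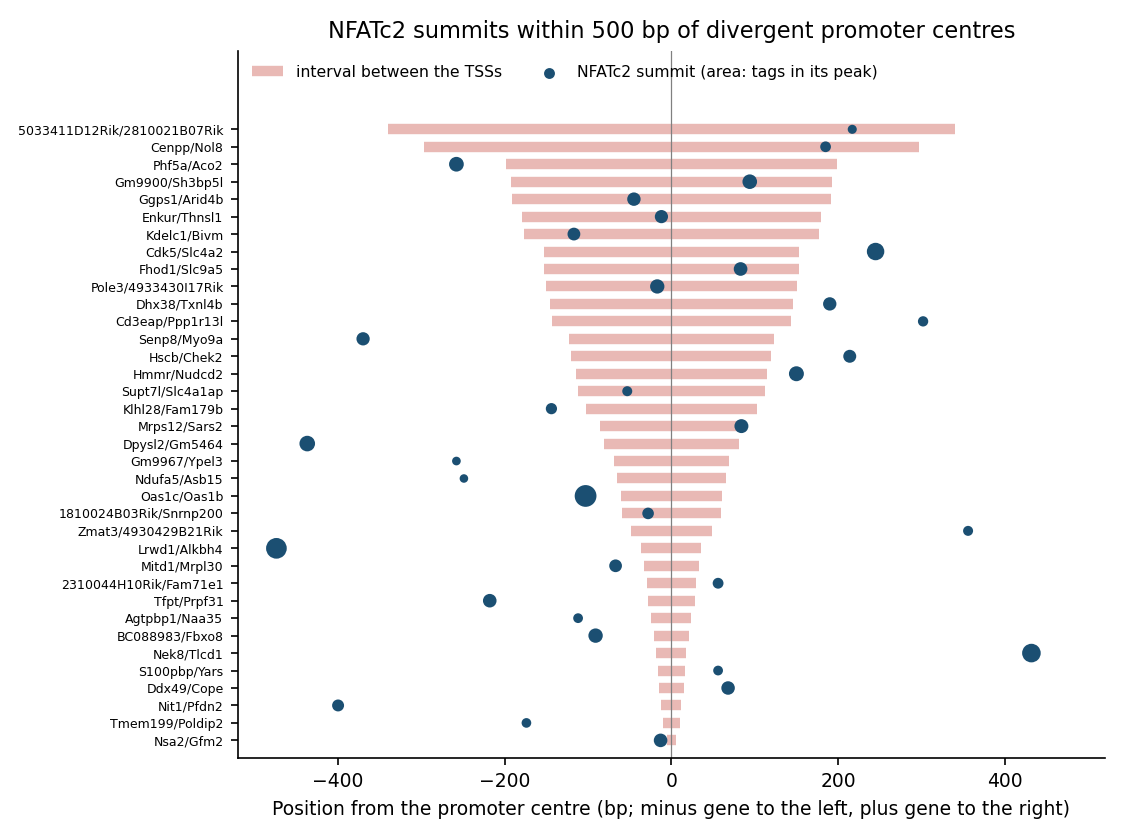
The 36 divergent promoters with an NFATc2 summit within 500 bp of the centre, ordered by the distance between their TSSs; pink bars span the TSSs, points are the summits (horizontal axis, bp from the centre; minus-strand gene to the left) and point area is proportional to the tags of the NFATc2 peak. Points inside a bar are the 11 summits between the TSSs, and the largest point is Oas1c/Oas1b with 223 tags.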

How the data were processed

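Reads were mapped to mm9 by the authors with bowtie, and peaks were called by them with MACS, whose headers name version 1.4.2, in each library against its own input, at a p-value threshold of 1e-05. The deposited lists hold a count of tags per peak, without normalization. The fold enrichment in the deposited lists is the ratio of tags to those expected from the input. The FDR is deposited in percent. The authors' lists also give a score, which is −log10 of the p-value multiplied by 10. No comparison columns of the authors were present.

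TSSs came from GENCODE M1 (Ensembl 65) on NCBI build 37, the assembly of mm9. For each of 22372 protein-coding genes, the TSS was the outermost 5′ end of its coding transcripts. Peaks overlapped at 1 bp or more. Differences of shares carry Newcombe's interval and the intervals of single ratios are exact binomial ones, all at 95%. Of the gene lists, 3 symbols were matched through older names. Sequences were read from the mm9 genome. The use of tags per kb for the 1.5-fold threshold, named peaks and gene groups, the valleys between 2 peaks and the restriction to pairs without Gm or Rik names were chosen after seeing the data. Members, gene lists and named pairs were chosen with earlier results of these data known. Named were the 5 members with the most tags, the 5 largest and 5 smallest ratios, members without a peak in a treated list, the 6 with the most NFATc2 tags, textbook pairs, extreme distances and immune genes; other genes named were chosen after their values were seen, and 1 of the 5 smallest ratios is not reported here. The scripts were tested on simulated data. The tools were matplotlib 3.10.9, pysam 0.24.0, scipy 1.17.1, pandas 2.3.3 and numpy 2.4.6 under Python 3.11.15.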

Additional observations from a re-analysis of the deposited data

How the results depend on the processing

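No paired analysis was possible because each group has 1 sample. Of 96 values computed under another setting, 78 lay within the interval of the value reported or, for the number of members, within 1.5 times it. The median curdlan over NT ratio was 0.0296 with tags per kb and -0.14 without centring, and that of curdlan with FK506 was -0.17 without centring, so the sign of these medians depended on the centring. The share of members past 2-fold with curdlan, 0.296%, was 6.37% with MACS fold enrichment, 0 with tags per kb, 1.29% with all overlapping peaks summed and 1.19% at 1.5-fold. Over all NT peaks the share was 1.61%, and 7.13% at 1.5-fold, and per kb 24 of 6837 single-TSS peaks passed 2-fold. With fold enrichment or summed peaks it was computed for members only, so those shares do not compare members with other peaks. Called lengths and tags per kb stand beside the largest changes in the report. The share with an NFATc2 summit was 10.3% anywhere in the peak and 2.15% when NFATc2 peaks were limited to p-values up to 1e-10. The CpG ratio was 0.88 for TSSs at most 300 bp apart and 0.83 in 600 bp. Without Gm or Rik names, an alternative chosen after seeing the data, 100% of members overlapped a curdlan with FK506 peak. Against single-TSS peaks weighted by quintiles of tags, the length difference of 634.5 bp became -171 bp, and the overlap differences of 0.876 and 1.28 points became -0.0458 and 0.151 points. Weighted by quintiles of length, the tag difference of 380.5 became 131, and the overlap differences became 0.0866 and 0.298 points. The rule applied to the other lists, also chosen after seeing the data, gave 715 members in curdlan and 701 in curdlan with FK506, with median lengths of 3544 and 3455 bp. With 1 library per condition, counting error is the only error measured. The weakest comparable member, A830093I24Rik/Pfn4, had an interval from 0.48 to 1.62 around its ratio. A tag was kept once per position, so the tags of tall peaks have a ceiling.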
